A study of Homo sapiens with 6 samples.

Results

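Protein phosphatase 2A (PP2A) is one of the major serine/threonine phosphatases of human cells. Its core enzyme joins a catalytic subunit to a scaffold subunit, and 1 of many B-type regulatory subunits completes the trimer and directs it to substrates. The catalytic subunit is methylated at its carboxy-terminal leucine by LCMT1, demethylated by PPME1, activated by the prolyl isomerase PTPA and bound outside the trimer by TIPRL. PP2A is widely regarded as a tumor suppressor.

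The mRNA of 10 PP2A genes was examined in PaTu8988t cells, an established human line of pancreatic ductal adenocarcinoma (PDAC), with and without *SAMD1*. The genes were those whose symbol in the deposited table of 20347 gene symbols was a listed PP2A gene. They were 2 catalytic subunits (*PPP2CA*, *PPP2CB*), 2 scaffold subunits (*PPP2R1A*, *PPP2R1B*), 3 B-type subunits (*PPP2R2A*, *PPP2R2C*, *PPP2R5A*) and the regulators *LCMT1*, *PTPA* and *TIPRL*. All 10 were in the table and all 10 passed the filter on low values, which kept the 12773 genes whose normalized count averaged 10 or more. *PPME1* was not among the 10 and is given as a point of reference.

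RNA-seq was made from 3 replicates of control cells and from 3 independent *SAMD1* KO clones. Per the study's methods, control cells received the Lenti-CRISPR V2 plasmid with an unspecific control guide RNA, KO cells received the same plasmid with *SAMD1* guides, and single clones were selected with puromycin. Each KO library is thus 1 clone, and nothing in the labels says whether the control replicates were clones, so p-values measure the spread between these libraries. The study's legends call only the KO cells clonally independent, so the control spread may hold no variation between clones. If so, a trait shared by the control replicates cannot be told apart from an effect of the KO. SAMD1 is a chromatin protein that binds unmethylated CpG islands, and the comparison asks what its loss does to gene expression.

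Library totals ran from 35589477 to 45172216 recovered reads, and every member had at least 663 reads in every library. *SAMD1* itself had 2231, 2382 and 2299 normalized counts in the control libraries and 874, 1082 and 825 in KO clones 1 to 3 (log2 fold change −1.32, standard error or SE 0.10, limma adjusted p = 0.000724), so each KO library lay below each control library. The KO clones differed more among themselves than the controls did, with a median log2 SD over all tested genes of 0.15 against 0.059. Of 8 ductal epithelial markers, *KRT8* and *KRT18* had at least 29200 normalized counts in every library and *EPCAM* ranged from 422 to 626, whereas *CDH1* had 24.0 to 45.8 and *KRT19* was listed at 0 in all 6. Their summed level was 62993 to 66189 in controls and 67950 to 108873 in KO clones, and 1 of the 7 tested, *KRT7*, passed, with 26.4 to 34.3 in controls and 78.1 to 90.7 in KO clones (limma adjusted p = 0.00392). Of the markers of other cell types, 0 had an adjusted p below 0.05 and *DCN*, *LUM*, *CD3E*, *PRSS1*, *CPA1*, *CELA3A* and *PNLIP* were listed at 0 in all 6 libraries. Others were detected and in part differed between the groups. *CD68* ranged from 353 to 368 in controls and from 242 to 326 in KO clones, *COL3A1* from 109 to 113 and from 130 to 398, *COL1A1* from 48.9 to 52.7 and from 15.3 to 41.5, and *CDH5* from 29.4 to 37.7 and from 2.97 to 17.3. In controls and KO clones the summed levels were 164 to 166 and 148 to 443 for 6 fibroblast markers, 370.0 to 378 and 266 to 355 for 5 leukocyte markers, 80.1 to 85.9 and 35.6 to 85.4 for 4 endothelial markers, and 0 and up to 1.73 for 5 acinar markers. Their part in the results was not tested. These are bulk libraries of mRNA, in which fewer cells of a kind and less RNA per cell cannot be told apart, and protein and enzyme activity were not measured.

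Of the 10 PP2A genes, 8 did not pass the test between *SAMD1* KO and control cells. The other 2 had a limma adjusted p below 0.05, against 13.0% of the 12773 tested genes. *PPP2R2C*, a B-type subunit gene, rose in KO cells (8.32% of tested genes were higher at this threshold), and *PPP2R1B*, the less abundant scaffold gene, fell (4.70% were lower). The median log2 fold change of the 10 genes was −0.015, beside −0.0059 for all tested genes, and their median absolute log2 fold change was 0.16 beside 0.15. Over the 7604 tested genes at or above the lowest member mean, these 2 medians were −0.033 and 0.12. None of the 10 passed the study's cut-off of a log2 fold change beyond 0.5 with an unadjusted p below 0.01, in limma or in edgeR or DESeq2 on recovered reads, which 7.85% of tested genes passed in limma (5.77% higher and 2.08% lower in KO cells). In limma, 5 of the 10 had an unadjusted p below 0.05, against 29.6% of tested genes. The same 5 were those whose KO and control libraries did not overlap, which held for 37.8% of tested genes. *PPP2CA*, *PPP2CB*, *PPP2R1B* and *PPP2R2A* were lower in every KO clone than in every control (18.6% of tested genes) and *PPP2R2C* was higher (19.2%).

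**Figure D1:**
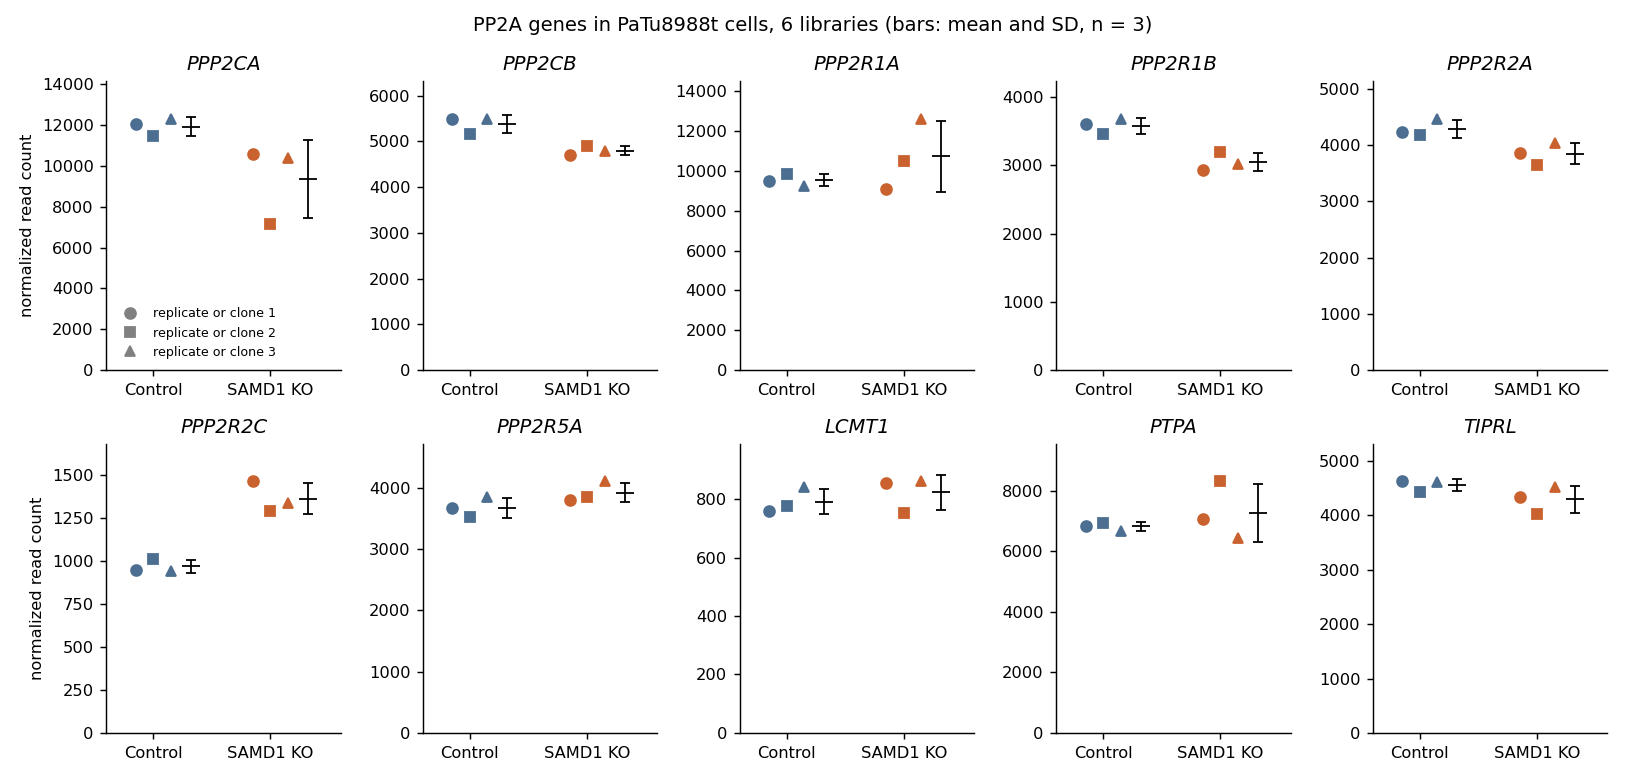
Normalized read counts (y axis, from 0) of the 10 PP2A genes in the 3 control libraries (blue) and the 3 SAMD1 KO clones (orange), with marker shape for the replicate or clone number and black bars for the mean and SD (n = 3). PPP2R2C is higher in all 3 clones than in all 3 controls, PPP2R1B is lower, and PPP2CA is lowest in clone 2 at 7166.

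**Figure D2:**
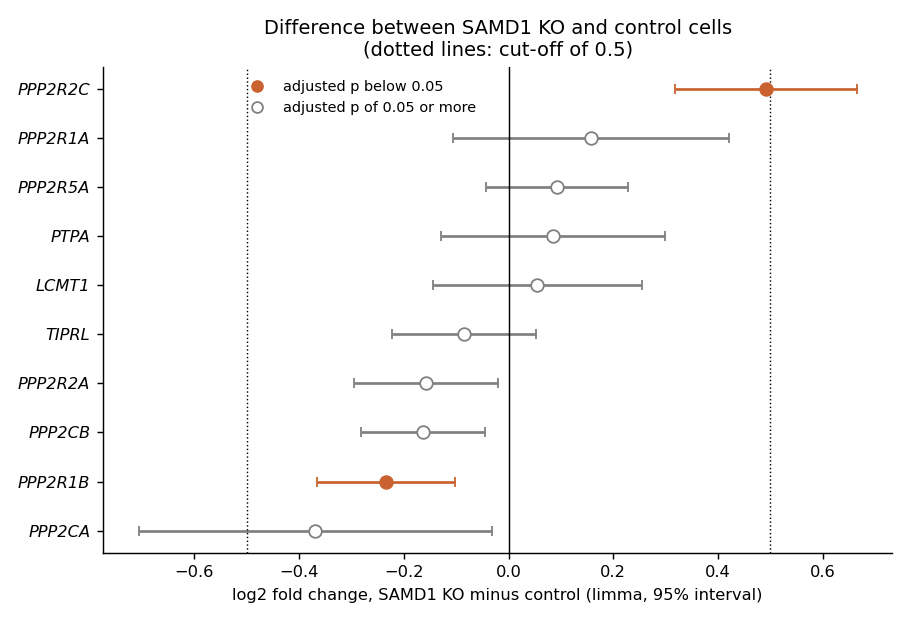
Log2 fold change between SAMD1 KO and control libraries (x axis) for each PP2A gene, with the 95% interval of limma and dotted lines at the cut-off of 0.5. Filled orange points are PPP2R2C (0.49) and PPP2R1B (−0.23), which had an adjusted p below 0.05, and the widest interval is that of PPP2CA.

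*PPP2R2C* encodes the gamma member of the B55 family of B-type subunits, best known from brain. It had 948, 1013 and 940 normalized counts in control libraries 1 to 3 and 1460, 1288 and 1336 in KO clones 1 to 3. The lowest KO clone was above the highest control, and clone 1 was the highest of all. The mean rose from 967 ± 39.6 to 1361 ± 89.0 (SD, n = 3 each), a fold of 1.41 or 0.49 on the log2 scale (95% interval 0.32 to 0.66, SE 0.074, limma adjusted p = 0.00696). The fold change fell just short of the cut-off of 0.5. The 40 tested genes nearest to it on chromosome 4 had median log2 differences of 0.0087, 0.097 and 0.027 in clones 1 to 3, and the log2 fold change was 0.44 after these regional shifts were removed (adjusted p = 0.00905). It had an adjusted p below 0.05 in 14 of 15 alternative fits, the exception being the fit without control replicate 1 (adjusted p = 0.0506).

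*PPP2R1B* encodes the beta scaffold subunit. Its counts were 3599, 3458 and 3683 in controls and 2928, 3189 and 3019 in KO clones. All clones were below all controls, with little spread in either group. The mean fell from 3580 ± 114 to 3045 ± 132 (SD, n = 3 each), which is −0.23 on the log2 scale (95% interval −0.37 to −0.10, SE 0.056, limma adjusted p = 0.0370). The neighbouring genes on chromosome 11 had median log2 differences of −0.071, −0.15 and −0.055 in clones 1 to 3, and with these shifts removed the log2 fold change was −0.14 and the adjusted p 0.161. The adjusted p was below 0.05 in 8 of 15 alternative fits and was 0.0989 to 0.167 without any 1 control. The exons of *PPP2R1B* overlap those of *SIK2* on the opposite strand, and the strand setting of the counting is not given in the sources used here.

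The promoters of these 2 genes are shown because SAMD1 is known to bind CpG-rich promoters with GCGC motifs and because they were the members that passed the test. Each line holds the 250 bases upstream of the start of the gene's main transcript, from RefSeq on GRCh38.p14, written 5′ to 3′ on the gene's strand, with GCGC in capitals. *PPP2R2C* lies on the minus strand of chromosome 4 (6320578 to 6563600) and its window is chr4:6472615-6472864. *PPP2R1B* lies on the minus strand of chromosome 11 (111726908 to 111766389) and its window is chr11:111766390-111766639.
PPP2R2C: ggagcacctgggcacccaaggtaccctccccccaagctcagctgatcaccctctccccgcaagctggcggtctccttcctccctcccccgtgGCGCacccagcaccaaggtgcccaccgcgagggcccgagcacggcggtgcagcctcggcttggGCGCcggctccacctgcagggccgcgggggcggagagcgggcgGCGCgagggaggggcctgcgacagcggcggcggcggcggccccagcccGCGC
PPP2R1B: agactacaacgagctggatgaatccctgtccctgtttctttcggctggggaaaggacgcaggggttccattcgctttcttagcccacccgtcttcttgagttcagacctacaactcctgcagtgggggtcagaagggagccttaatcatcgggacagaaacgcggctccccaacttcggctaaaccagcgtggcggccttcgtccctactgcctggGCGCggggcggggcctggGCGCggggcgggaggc

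The letters GCGC, which read the same on both strands, occurred 4 times in the *PPP2R2C* window and 2 times in that of *PPP2R1B*. Of 35116 RefSeq promoter windows of this length, 53.4% held at least 1 GCGC, 39.1% at least 2 and 22.0% at least 4. The table gave *PPP2R2C* 5 start sites, and the number of GCGC matches ranged from 0 to 13 among them. The counts here are per gene and do not tell which start was used. Among members that did not pass the test, the windows at the main start of *PTPA*, *PPP2R5A*, *PPP2CA* and *PPP2R1A* held 11, 6, 5 and 2 matches. Those of *LCMT1* and *TIPRL* held 0. Binding of SAMD1 to these promoters was not analysed here.

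*PPP2CA* encodes the alpha catalytic subunit and *PPP2CB* the nearly identical beta subunit. *PPP2CA* had 12035, 11442 and 12309 normalized counts in controls and 10576, 7166 and 10381 in KO clones. How reads that fit both genes were counted is not given in the sources used here. Exons of *PPP2CA* also overlap those of 2 annotated protein-coding genes on the same strand. Clone 2 stood well below clones 1 and 3, which were themselves below every control. The mean was 11928 ± 443 in controls and 9375 ± 1915 in KO cells (SD, n = 3 each). The log2 difference of −0.37 (95% interval −0.71 to −0.032) did not pass the test (limma adjusted p = 0.138). Without clone 2 it was −0.19 (adjusted p = 0.0646). The 40 tested genes around *PPP2CA* on chromosome 5 were lower in clone 2, with a median of −0.56 on the log2 scale, against 0.0026 and −0.056 in clones 1 and 3, while *PPP2CA* itself had −0.73, −0.17 and −0.20 in clones 2, 1 and 3. After the regional shift was removed, the log2 fold change was −0.16 with an adjusted p of 0.0417.

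*PPP2CB* was steadier. It had 5481, 5161 and 5496 normalized counts in controls and 4700, 4900 and 4800 in KO clones, so the groups did not overlap. The log2 fold change was −0.16 (SE 0.051, limma adjusted p = 0.0771), and in DESeq2 on recovered reads the adjusted p was 0.0478. Per kilobase of main transcript, the summed level of both catalytic genes was 5368 ± 192 normalized counts in controls and 4513 ± 373 in KO cells (SD, n = 3 each). Every clone was below every control in this sum, which follows from the same separation in each gene and adds no support.

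The balance of the catalytic genes differed in 1 clone. The ratio of *PPP2CA* to *PPP2CB* counts was 2.20, 2.22 and 2.24 in controls, 2.25 in clone 1, 1.46 in clone 2 and 2.16 in clone 3. The mean log2 ratio differed by −0.21 between KO and control cells, and by −0.0074 without clone 2. An exact two-sided permutation test over the 6 libraries gave p = 0.4 (adjusted over 3 ratios 0.4), and its smallest possible p is 0.1.

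*PPP2R1A*, the main scaffold gene, had 9510, 9860 and 9249 normalized counts in controls and 9069, 10501 and 12613 in KO clones. Clone 1 lay below the controls and clones 2 and 3 above them. The log2 fold change was 0.16 (95% interval −0.11 to 0.42, limma adjusted p = 0.391), and it was 0.033 without clone 3. In clone 3 the genes around *PPP2R1A* on chromosome 19 stood at a median of 0.23 on the log2 scale, beside 0.40 for *PPP2R1A*. Exons of *PPP2R1A* overlap those of 1 annotated long noncoding RNA on the same strand and 1 on the opposite strand.

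The ratio of the scaffold genes did not overlap between the groups, but the test could not pass with 3 libraries each. *PPP2R1A* counts were 2.64, 2.85 and 2.51 times those of *PPP2R1B* in controls and 3.10, 3.29 and 4.18 times in KO clones 1 to 3. Every KO clone was above every control, a mean log2 difference of 0.39, and the exact two-sided permutation p was 0.1, the smallest possible (adjusted over 3 ratios 0.15). When each library was left out in turn, the difference ranged from 0.26 to 0.48. How many other gene pairs separate the groups was not counted. Per kilobase of main transcript, *PPP2R1A* made up 73.4% ± 1.24 of scaffold mRNA in controls and 78.3% ± 2.62 in KO cells (SD, n = 3 each). With the length of all annotated exons, its mean share was 63.3% in controls and 69.2% in KO cells.

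**Figure D3:**
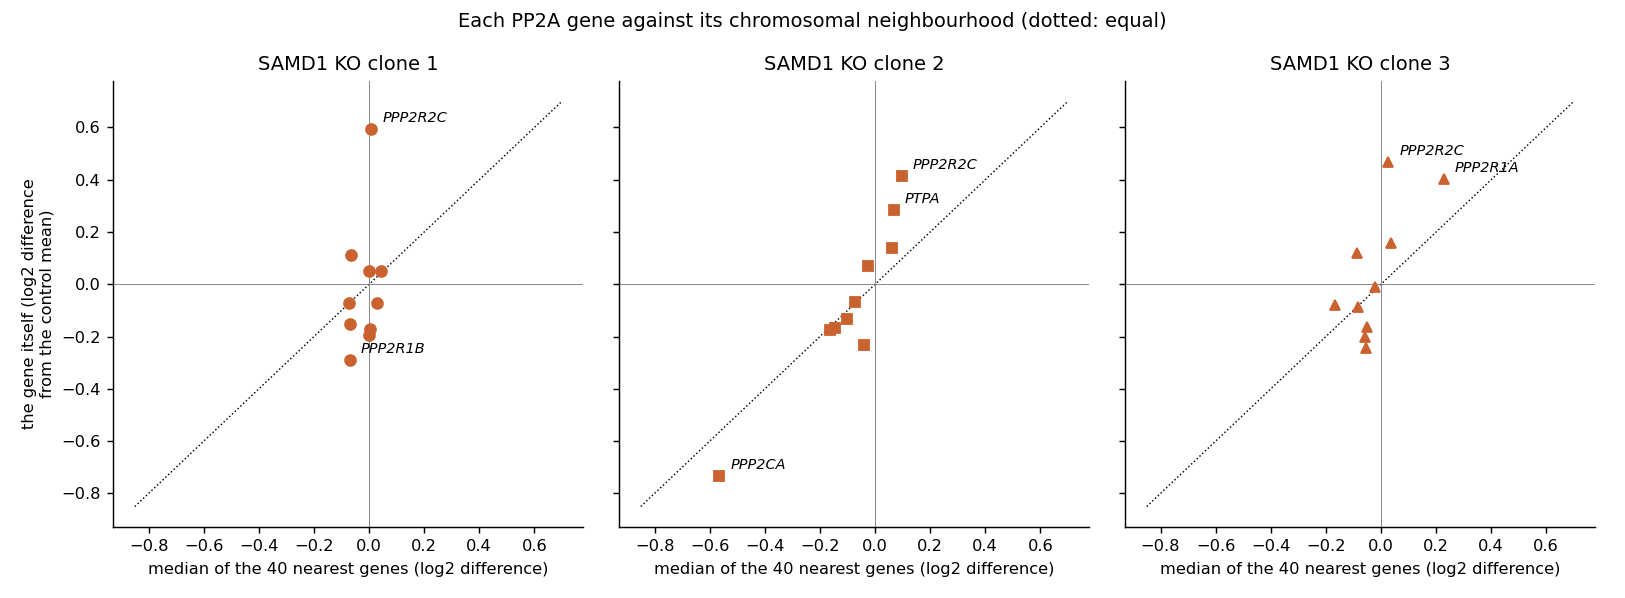
Log2 difference of each PP2A gene from the control mean (y axis) against the median log2 difference of the 40 nearest tested genes (x axis), 1 panel for each SAMD1 KO clone, with a dotted line where both are equal. PPP2CA in clone 2 (−0.73 with −0.56 around it) and PPP2R1A in clone 3 (0.40 with 0.23 around it) lie where the neighbourhood moved with the gene, and PPP2R2C lies far above its neighbourhood in all 3 panels.

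Across the 30 pairs of a member and a clone, the neighbouring genes had a median beyond 0.2 in either direction in 2, *PPP2CA* in clone 2 and *PPP2R1A* in clone 3. The share of such pairs over all tested genes was not counted, so whether 2 of 30 is ordinary is not known. Genes of the related lists also lay beyond 0.2, among them *STK26* and *PABIR2* in clone 1 (neighbour medians 0.96 and 0.95). For 8 of the 10 members the log2 SD was larger among KO clones than among controls, with a median of 0.089 against 0.052. The medians were 0.15 against 0.059 over all tested genes. They were 0.11 against 0.043 over the 7604 tested genes at or above the lowest member mean. A wider spread among clones was thus not particular to the members, and the share of all tested genes that had it was not counted.

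The other B-type members did not pass the test. *PPP2R2A*, the alpha member of the B55 family, had 4228, 4175 and 4468 normalized counts in controls and 3859, 3653 and 4034 in KO clones. The groups did not overlap, yet the log2 fold change of −0.16 (SE 0.058) did not pass the test (limma adjusted p = 0.125), and it was −0.087 after regional shifts were removed. *PPP2R5A*, the alpha member of the B56 family, had 3663, 3518 and 3842 in controls and 3802, 3854 and 4101 in KO clones, which overlap (log2 fold change 0.093, limma adjusted p = 0.326).

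Set against all 15 B-type genes listed, *PPP2R2C* remained a minor subunit. Per kilobase of main transcript it held 2.36% ± 0.10 of B-type mRNA in controls and 3.35% ± 0.34 in KO cells (SD, n = 3 each), while *PPP2R2A* held 11.9% and 10.7%, and *PPP2R5A* 12.3% and 13.2%. The summed B-type level was 9214 ± 105 and 9154 ± 411 normalized counts per kilobase. The share of *PPP2R2C* was from 2.27% to 2.47% in controls and from 3.13% to 3.74% in KO clones, with no overlap. The shares depend on the length used. With all annotated exons, the mean share of *PPP2R2C* was 1.91% in controls and 2.73% in KO cells. That of *PPP2R5A* was then 17.3% and 18.6%.

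**Figure D4:**
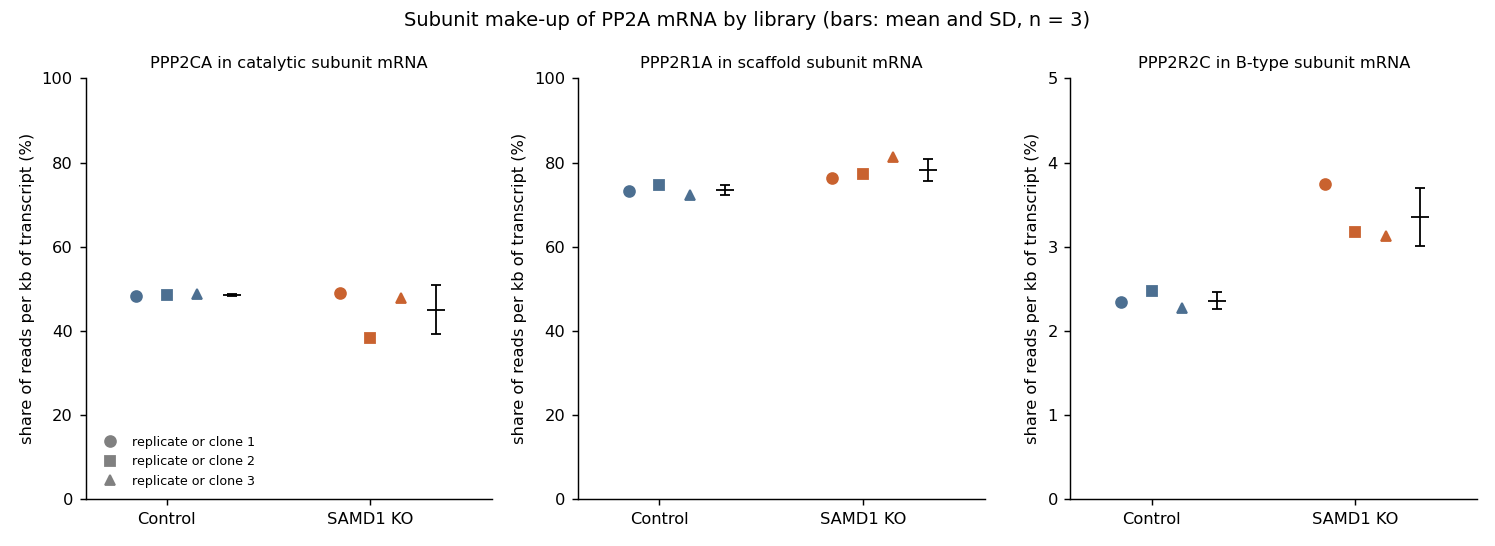
Share of reads per kilobase of main transcript (y axis, %) held by PPP2CA among the 2 catalytic genes, PPP2R1A among the 2 scaffold genes and PPP2R2C among 15 B-type genes, by library, with mean and SD (n = 3, black). PPP2CA is at 38.3% in clone 2 and between 47.9% and 48.9% in the other 5 libraries, and PPP2R1A and PPP2R2C are higher in every clone than in every control. The axis of the right panel ends at 5%. With the length of all annotated exons, the mean share of PPP2CA was 60.6% in controls and 57.1% in KO cells.

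The regulators of PP2A activity did not pass the test. *LCMT1*, the methyltransferase, had 758, 776 and 842 normalized counts in controls and 855, 754 and 861 in KO clones, with clone 2 the lowest of the 6 (log2 fold change 0.055, 95% interval −0.14 to 0.25, limma adjusted p = 0.709). *PTPA* had 6857, 6956 and 6668 in controls and 7063, 8315 and 6455 in KO clones. Clone 2 was the highest and clone 3 the lowest of the 6, and the log2 fold change of 0.085 (limma adjusted p = 0.579) was −0.016 without clone 2. Exons of *PTPA* overlap those of *CRAT* on the opposite strand and of 1 other annotated protein-coding gene on the same strand. *TIPRL* had 4625, 4435 and 4613 in controls and 4342, 4032 and 4523 in KO clones, which overlap (log2 fold change −0.086, limma adjusted p = 0.369), and with regional shifts removed the log2 fold change was 0.0024.

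*PPME1*, the methylesterase that opposes LCMT1, fell in every clone. It had 38945, 40889 and 38146 normalized counts in controls and 5323, 5358 and 5095 in KO clones (log2 fold change −2.90, SE 0.052, limma adjusted p = 9e-07). The 3 clones lay close together and far below every control. The genes around it on chromosome 11 (74171267 to 74254703) had medians of −0.057, −0.011 and −0.021 in clones 1 to 3. The ratio of *LCMT1* to *PPME1* counts was 0.0195, 0.0190 and 0.0221 in controls and 0.161, 0.141 and 0.169 in KO clones. The log2 ratio was thus 2.96 higher in KO cells, with an exact permutation p of 0.1, the smallest possible (adjusted over 3 ratios 0.15). The fall of *PPME1* was known from these data before the ratio was chosen, and the log2 fold change of *LCMT1* was 0.055. The ratio therefore restates that fall and its p is no further support. This p also enters the adjustment of the other ratios. The exons of *PPME1* overlap those of *P4HA3* on the opposite strand.

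Per kilobase of main transcript, the members ranged from 217 ± 8.91 (*PPP2R2C*) to 2764 ± 97.2 (*PPP2CB*) normalized counts in controls (SD, n = 3 each). In controls the order from high to low was *PPP2CB*, *PPP2CA*, *PTPA*, *PPP2R1A*, *TIPRL*, *PPP2R5A*, *PPP2R2A*, *PPP2R1B*, *LCMT1* and *PPP2R2C*. The libraries of *PPP2CB*, *PPP2CA* and *PTPA* overlapped between neighbours in this order, as did those of *PPP2R5A* and *PPP2R2A* and those of *PPP2R1B* and *LCMT1*. In KO cells *PTPA* was highest at 2757 and *PPP2CA* was 2046, and *LCMT1* had a mean of 609 beside 548 for *PPP2R1B*. The KO libraries of *LCMT1* (558 to 637) and *PPP2R1B* (527 to 574) overlapped, as did those of *PTPA* (2445 to 3150) and *PPP2CB* (2415 to 2518). The order depends on the length used: with the length of all annotated exons, *PPP2CA* stood above *PPP2CB* in controls, at 1835 against 1193 per kilobase.

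At the same threshold as above, which 13.0% of all tested genes passed, few other PP2A genes passed. Of the 12 other B-type subunits, 10 were tested and 0 had an adjusted p below 0.05 in limma, with 1 at an unadjusted p below 0.05 (*PPP2R5E*, log2 fold change −0.16). edgeR called 0 and DESeq2 called *PPP2R5E*. *PPP2R2B* had at most 9.89 normalized counts and *PPP2R3B* was listed at 0 in all libraries. The median log2 fold change of the 10 was −0.079. Of 17 PP2A inhibitors and partners, *PPME1* alone passed, and the median was −0.035. *SET*, a PP2A inhibitor, had a log2 fold change of −0.16 (adjusted p = 0.149), *CIP2A* one of −0.14 (adjusted p = 0.176), and *ARPP19*, which inhibits PP2A with B55 in mitosis, one of −0.27 (adjusted p = 0.0598).

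Of the striatin-interacting phosphatase and kinase (STRIPAK) complex, a PP2A assembly built on striatins, 3 of 12 tested genes passed, against 13.0% of all tested genes. *CTTNBP2*, which codes for a cortactin-binding protein, rose from 48.0, 55.8 and 47.0 normalized counts in controls to 69.2, 142.6 and 115.1 in KO clones (log2 fold change 1.04, SE 0.27, limma adjusted p = 0.0475). When each library was left out in turn, *CTTNBP2* passed in 1 of 6 fits, that without clone 1 (adjusted p = 0.00589). *FGFR1OP2* fell from 1453 ± 60.1 to 1207 ± 12.1 (SD, n = 3 each), by −0.27 on the log2 scale (limma adjusted p = 0.0313), and *PDCD10*, the adaptor that links the kinases to striatins, fell from 4278 to 3699 (log2 fold change −0.21, limma adjusted p = 0.0376). Without any 1 control, the adjusted p of both was between 0.0817 and 0.179. The median of the 12 was −0.031. Of 21 tested genes of other phosphatases of the PPP family, 0 passed in limma and edgeR and 3 in DESeq2, with 5 at an unadjusted p below 0.05 in limma (29.6% of all tested genes) and a median of −0.042.

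**Figure D5:**
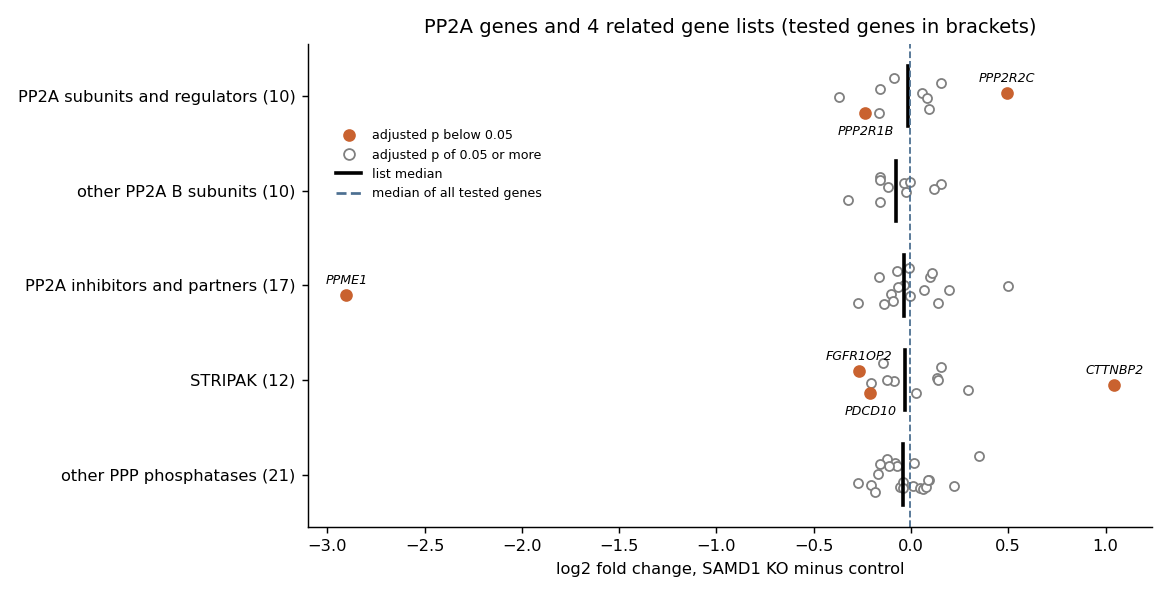
Log2 fold change between SAMD1 KO and control libraries (x axis) for the tested genes of 5 lists, with genes at an adjusted p below 0.05 filled in orange, black bars for list medians and a dashed line for the median of all tested genes. The list medians lie between −0.079 and −0.015, and PPME1 at −2.90 is far from every other gene shown. Vertical scatter within a list has no meaning.

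Of the members, *PPP2R2C* had the smallest p. The genes outside these lists with the most similar profile over the 6 libraries were *OTUD5* and *MED14* on chromosome X and *TRIM62* on chromosome 1, with root mean square differences in log2 level of 0.035, 0.042 and 0.040 after each gene was centred on its own mean. *OTUD5* rose from 2261 ± 34.9 to 3161 ± 154 and *MED14* from 5714 ± 160 to 7850 ± 362 (SD, n = 3 each). After regional shifts were removed their log2 fold changes were 0.048 and 0.053, while that of *TRIM62* was 0.41 and that of *PPP2R2C* 0.44. Within the members, the closest pair was *PPP2CB* and *PPP2R1B*, with a root mean square difference of 0.041.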

How the data were processed

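PaTu8988t RNA-seq libraries (TruSeq Stranded mRNA, poly(A) RNA) of 3 control replicates and 3 *SAMD1* KO clones were analysed, with groups taken from the sample labels. The authors used RNA-STAR to align the reads to GenCode 43 transcripts, and the submitters' processing notes name hg38, featureCounts and DESeq2. The deposited values are normalized counts, a signal obtained by dividing the read counts of each library by 1 size factor. All values of each library were whole multiples of 1 step (100% within 0.01 of a read), from which reads were recovered (size factors 0.873 to 1.16). An automatic test of this recovery accepted 5 libraries and refused *SAMD1* KO clone 1, whose step is close to 1, so the count tests rest on direct division for that clone. The authors' own fold changes and p-values were not used, and 0 sample columns were left out.

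The main test was limma 3.58.1 (lmFit, eBayes with trend, R 4.3.3) on log2(normalized count + 1) for 12773 genes with a mean of at least 10, two-sided, with Benjamini-Hochberg adjustment over all of them. Fold changes on this scale understate those of low genes. The members and gene lists were chosen with earlier results of these data known. Named genes were the 10 members, *SAMD1*, *PPME1*, up to 4 genes per list with an adjusted p below 0.05, and the 3 genes most like the member with the smallest p. *PPP2R5E*, *SET*, *CIP2A*, *ARPP19*, *PPP2R2B*, *PPP2R3B*, *STK26*, *PABIR2*, *PABIR3* and *IGBP1* fall outside this rule and were named after their values were seen. Ratios were compared by exact permutation.

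Positions are from GENCODE 44 on GRCh38, which gave a position to 99.3% of tested genes, and lengths are those of the main (MANE Select or canonical) transcript. A promoter table from RefSeq (GRCh38.p14) gave windows for 8 of the 10 members. Regional shifts are medians of the 40 nearest tested genes in each library. Other settings tried were pseudocounts of 0.1 and 10, filters at no minimum and at a mean of 50, scaling to the 75th percentile, a replicate block, the omission of each library, edgeR 4.0.16 (quasi-likelihood) and DESeq2 1.42.0 on recovered reads, and removal of regional shifts. Replicates differed beyond counting noise, with a chi-square per degree of freedom of 2.66 to 5.22 among controls and 50.4 to 58.1 among clones, and at these depths the number of libraries limits precision. On simulated counts for 12721 genes with 200 changed 2-fold, limma recovered 187 and called 13 others. The simulation gave both groups the same spread for each gene, unlike the real clones and controls. Its changes were also larger than that of any member, so it does not show how well changes of the members' size are found. Python 3.11.15 with pandas 2.3.3 and SciPy 1.17.1 was used elsewhere.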

Additional observations from a re-analysis of the deposited data

How the results depend on the processing

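Every member kept the direction of its log2 fold change in all 15 alternative fits, except *PTPA*, which was −0.016 without clone 2 (−0.016 to 0.17 over the fits that left out a library), and *TIPRL*, which was 0.0024 with regional shifts removed. For 2 more values, 1 clone decided the size: *PPP2CA* was −0.19 without clone 2 and *PPP2R1A* 0.033 without clone 3. The number of members with an adjusted p below 0.05, 2 in the main test, was 3 in DESeq2 (*PPP2CB*, *PPP2R1B* and *PPP2R2C*). It was 1 with the replicate block (*PPP2R2C*) and 1 with 75th percentile scaling (*PPP2R2C*), and it ranged from 0 to 2 over the fits that left out a library. With regional shifts removed it was again 2, *PPP2CA* and *PPP2R2C*. The number past the study's cut-off, 0, became 1 (*PPP2R2C*) with 75th percentile scaling and ranged from 0 to 1 without a library. For other B-type subunits the count of 0 was 1 in DESeq2 and 0 to 1 without a library. For inhibitors and partners the count of 1 was 3 in DESeq2 and 2 with regional shifts removed or with 75th percentile scaling, and 1 to 3 without a library. For STRIPAK the count of 3 was 0 with the replicate block and 0 to 4 without a library. For other phosphatases the count of 0 was 3 in DESeq2 and with regional shifts removed, and 0 to 1 without a library. Over all tested genes, 1663 had an adjusted p below 0.05, with a range of 509 to 2569 without a library, the lowest without control replicate 1 and the highest without clone 1, and 1217 with the replicate block. The fits that leave out a library rest on 5 libraries; the cause of the other changes was not tested.

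The labels do not say whether equal replicate numbers pair the samples. Deviations of equally numbered libraries correlated only weakly across genes, at 0.039, 0.13 and 0.032. Each control correlated best with the clone of its own number except control 3, whose 0.036 with clone 1 was higher. Whether equally numbered libraries share a small effect was not tested. The mean differences of the 3 log2 ratios, −0.21, 0.39 and 2.96, are the same with the block.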

Other observations

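In 1 stretch of chromosome X (132023302 to 134854835), 3 genes of the related lists were high in clone 1, a pattern chosen after the values were seen. *IGBP1*, elsewhere on the same arm (70133447 to 70166324), did not share it, with 1235 normalized counts in clone 1 and 1270.0 in clone 3. *STK26*, a STRIPAK kinase, had 2375, 2384 and 2290 normalized counts in controls, 4339 in clone 1, 2325 in clone 2 and 2370 in clone 3. *PABIR2*, a PP2A inhibitor, had 2396, 2260 and 2300 in controls, 4505 in clone 1, 2194 in clone 2 and 1685 in clone 3. The 40 tested genes nearest to each had median log2 differences from the control mean of 0.96 (*STK26*) and 0.95 (*PABIR2*) in clone 1, beside 0.88 and 0.96 for the genes themselves. *PABIR3*, its neighbour, had 118.7 normalized counts in clone 1 and 55.0 to 82.1 in the other 5 libraries. None of the 3 had an adjusted p below 0.05 in limma (0.236 to 0.807).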
